A study of Mus musculus with 12 samples.

Results

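Skin of *Cdc42* knockout mice given ZnO NPs was compared with skin of wild-type mice given the vehicle. The comparison holds 6 of the 12 RNA-seq libraries of the series, 3 labelled KO+ZnO NPs and 3 labelled WT, chosen by their sample labels. Of the 52636 genes in the table of counts, 18822 passed a filter on low counts and were tested. All mice were C57BL/6 mice of 3 months by their labels. The methods describe C57BL/6J mice and give the sex, female, for the knockout mice. Skin of the shaved back was collected on day 14 of topical ZnO NPs or of the vehicle, which was saline with a cellulose derivative. In the KO group a Cre driven by the keratin K5 promoter deletes floxed *Cdc42*, so the gene is lost in basal keratinocytes and the cells that arise from them, while fibroblasts, vessels, muscle, fat and immune cells of the same full-thickness skin keep it. WT mice carry no such deletion. The 3 libraries of a group are 3 mice. The groups differ in genotype and in treatment together, and the parts of each cannot be told apart from these 6 libraries. The other 2 groups, KO with vehicle and the libraries labelled as WT+ZnO NPs, are given beside a result where they place it, and each of those comparisons shares libraries with the one described here.

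Cdc42 is a small GTPase that controls actin, cell polarity and the junctions between keratinocytes. The epidermis renews itself from basal cells that divide, move outward and build the cornified envelope, while hair follicles pass through cycles of growth and rest, and make hair keratins, inner root sheath and pigment only while they grow. Resident macrophages, dendritic cells and T cells guard the skin, and interferons switch on a wide set of antiviral genes in all of these cells. Cells that take up zinc bind it with metallothioneins, whose genes are switched on by the zinc-sensing factor MTF1.

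The targeted gene was measured first. *Cdc42* (ENSMUSG00000006699, chromosome 4 from 137319696 to 137357720 on the minus strand of GRCm38) had a level of 606, 628 and 616 CPM in the WT libraries and 365, 453 and 314 CPM in the KO+ZnO NPs libraries, where CPM is a gene's count scaled to the size of its library with TMM factors. The KO+ZnO NPs libraries all lay below the WT libraries (log2 fold change -0.71, standard error 0.15, adjusted p = 0.00610), and the difference did not pass on the 5 libraries without Y-linked transcripts (adjusted p = 0.0914). All adjusted p-values come from the quasi-likelihood test of edgeR and were adjusted after Benjamini and Hochberg. The level was 415, 464 and 440 CPM in KO, and 311, 350 and 317 CPM in the libraries labelled as WT+ZnO NPs, where it goes against the label. That group is therefore named by its label throughout.

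The 6 libraries held 22104282 to 28867802 counts. The skin markers *Krt5* and *Krt14* were present in all of them. Their means were 1712 and 2766 CPM in WT and 3948 and 5513 CPM in KO+ZnO NPs. The protein genes of the mitochondrial genome took 2.74% ± 0.39 of the counts in WT and 4.19% ± 0.35 in KO+ZnO NPs (SD, n = 3). Transcripts of Y-linked genes summed to 237 CPM in replicate 1 of KO+ZnO NPs and to at most 0.0504 CPM in the other 5 libraries compared. The libraries labelled as WT+ZnO NPs and replicate 1 of KO, used beside the results, also held them. *Xist*, a transcript of female cells, had 543 to 642 CPM in WT. In replicates 1, 2 and 3 of KO+ZnO NPs it had 0.349, 460 and 850 CPM. It had at most 0.475 CPM in the libraries labelled as WT+ZnO NPs and 0 CPM in replicate 1 of KO. For replicate 1 of KO+ZnO NPs and of KO this goes against the female sex given, so sex differs within the comparison. Replicate 1 of KO+ZnO NPs also stood apart from replicates 2 and 3 in several epidermal genes below, and replicate 3 in hair genes. With 3 libraries against 3, an exact permutation test of a single value cannot give a two-sided p below 0.1, so all tests come from the fit across all genes and libraries. In bulk skin, fewer cells of a type and less RNA per cell cannot be told apart.

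Of the 18822 genes tested, 4908 (26.1%) differed between KO+ZnO NPs and WT at an adjusted p below 0.05. In KO+ZnO NPs, 2464 were higher (13.1%) and 2444 were lower (13.0%). The share was 28.1% among protein-coding genes and 16.9% among long non-coding genes. A change of at least 2-fold was found in 1253 of the genes that rose (6.66% of those tested) and 1534 of those that fell (8.15%), and a change of at least 8-fold in 212 and 348. Across all genes tested, whether called or not, the 3 KO+ZnO NPs libraries lay above all WT libraries in 22.5% and below them in 20.1%, and 4810 of the 4908 called genes had no overlap. By the same test 8.18% of genes differed between KO and WT, 43.0% between the libraries labelled as WT+ZnO NPs and WT, 14.7% between KO+ZnO NPs and KO, and 3.28% between KO+ZnO NPs and the libraries labelled as WT+ZnO NPs. The change with ZnO NPs in the knockout differed from that in the WT-labelled libraries for 8.68%. Without replicate 2 of WT the count of 4908 was 2709. The counts of each gene list below stand against 13.1% of genes higher and 13.0% lower.

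**Figure D1:**
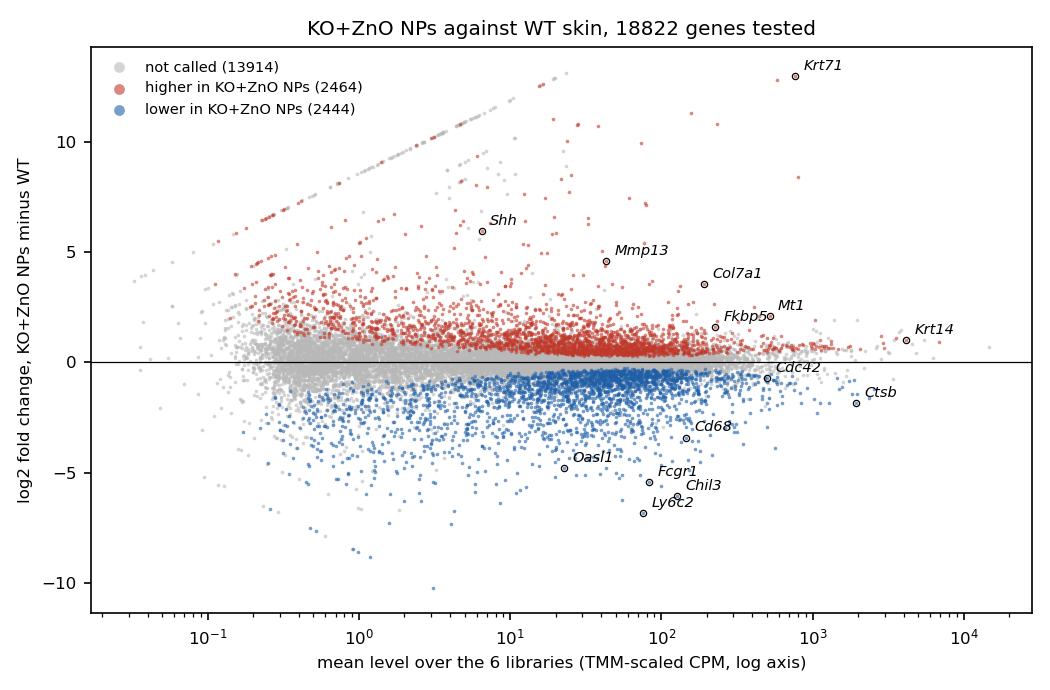
Log2 fold change of KO+ZnO NPs over WT (vertical axis) against the mean level over the 6 libraries in CPM (horizontal log axis), 1 point per gene, coloured by the test. The largest rises reach farther from 0 than the largest falls, with hair keratins such as *Krt71*, near 0 in WT, at the top. Monocyte genes such as *Ly6c2* are among the lowest labelled points. A change of at least 8-fold was found in 212 of the 2464 genes that rose and 348 of the 2444 that fell.

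Genes of the growing hair follicle made up most of the largest rises. Among protein-coding genes that passed the test, averaged 10 CPM or more and had separate groups, the 12 with the largest rise were taken, and 11 of them were keratins or keratin-associated proteins of the hair, namely *Krt71*, *Krt25*, *Krt26*, *Krt73*, *Krt27*, *Krt33a*, *Krt31*, *Krt35*, *Krtap11-1*, *Krtap7-1* and *Krtap8-1*. The remaining gene was *Calhm4*, of the calcium homeostasis modulator family of channels. *Krt71* (ENSMUSG00000051879, chromosome 15 from 101733949 to 101743109, minus strand), a keratin of the inner root sheath, had a level of 0.420, 0 and 0.170 CPM in WT and of 2541, 2014 and 61.8 CPM in KO+ZnO NPs. All treated knockout libraries were far above WT, and replicate 3 was far below replicates 1 and 2. The log2 fold change was 12.96 (standard error 2.98, adjusted p = 0.0101).

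Trichohyalin, which stiffens the inner root sheath, showed the same order of libraries. *Tchh* had 4.95, 3.58 and 5.82 CPM in WT and 2983, 1810 and 33.7 CPM in KO+ZnO NPs (log2 fold change 8.39, standard error 2.08, adjusted p = 0.0142). For *Krt35*, a keratin of the hair cortex, the levels were 0.168, 0.0702 and 0.212 CPM in WT and 296, 118 and 26.6 CPM in KO+ZnO NPs (log2 fold change 9.92, standard error 1.99, adjusted p = 0.00518). Where WT held no count at all, only a lower bound can be given. Against a floor of 3 counts per library, *Krt26* was at least 261-fold higher and *Calhm4* at least 274-fold higher. *Krt26* was called in 8 of 20 alternative settings, *Calhm4* in 12 of 21, *Krtap8-1* in 10 of 20 and *Krtap7-1* in 11 of 21. With 3 counts over the WT libraries, *Krt31* had a ratio of pooled counts of 1238 (95% counting interval 423 to 6005), and *Krt33a*, with 2 counts, had 2190 (606 to 18092). These intervals cover counting error only, and reads of *Krt31* and *Krt33a* can fall to related genes, since 28.1% and 17.8% of the 50-base stretches of their transcripts occur in other genes.

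Of 19 keratins of the hair shaft and inner root sheath that passed the filter, 12 rose and 0 fell, against 13.1% and 13.0% of all genes, and 17 lay without overlap above WT, against 22.5%. Their median log2 fold change was 10.78, or 8.51 with the 5 keratins that had 0 counts in WT set at their bound, against 0.08 over all genes tested. Of the others, *Krt36* and *Krt84* had 1.90 and -0.98 and did not pass. *Krt34*, *Krt33b*, *Krt72* and *Krt81*, with 0 counts in WT, and *Krt86* did not pass the test, with adjusted p between 0.0537 and 0.0800. Their summed level ran from 4.74 to 8.07 CPM in the WT libraries and was 7496, 5090 and 228 CPM in KO+ZnO NPs. It was 10112, 14.2 and 2632 CPM in KO, so replicate 2 of KO held almost none, and 1264 to 5400 CPM in the libraries labelled as WT+ZnO NPs. In the KO and WT comparison 6 of the 19 rose, and 15 rose between the libraries labelled as WT+ZnO NPs and WT. Between KO+ZnO NPs and KO, and between KO+ZnO NPs and the libraries labelled as WT+ZnO NPs, 0 were called. The 12 calls fell to 5 without replicate 1 or replicate 2 of WT and to 6 without replicate 3 of WT or replicate 1 of KO+ZnO NPs. The count was 12 on the 5 libraries without Y-linked transcripts. With at least 10 counts in every library, which removes genes near 0 in WT, 0 were called. Genes near 0 in WT passed the filter through other groups and could be called only higher.

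Of 23 regulators of hair growth that were tested, 17 rose, against 13.1% of all genes, and 2 fell (median log2 fold change 2.43). *Shh*, the signal that drives follicle growth, had 0.252, 0.0351 and 0.340 CPM in WT and 18.5, 10.3 and 9.41 CPM in KO+ZnO NPs (log2 fold change 5.94, standard error 1.31, adjusted p = 0.00814), and its receptor gene *Ptch1* had a log2 fold change of 1.22 that did not pass (adjusted p = 0.0539). *Hoxc13*, a factor that switches on hair keratin genes, had 1.34, 0.386 and 1.57 CPM in WT and 69.4, 17.6 and 14.7 CPM in KO+ZnO NPs. Its log2 fold change was 4.96 (standard error 0.94, adjusted p = 0.00384), and that of *Padi3*, an enzyme that modifies trichohyalin, was 6.52 (standard error 1.82, adjusted p = 0.0242). *Lef1*, *Msx2*, *Lhx2*, *Dlx3*, *Foxn1*, *Gli1* and *Wnt10b* also rose. The growth factor genes *Fgf18* and *Fgf7* fell, by 2.40 and 1.86 on the log2 scale. The count of 17 was 10 without replicate 2 of WT. Exons of *Shh* overlap another annotated gene over 28.4% of their bases, and the sources used here do not say whether strand was used in counting, so reads of the overlap cannot be assigned.

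Of 16 pigment cell genes 13 rose, against 13.1% of all genes, 1 fell and 2 were not called. The enzymes that make melanin and the proteins that shape the pigment granule gave the clearest values. *Tyr* (tyrosinase, ENSMUSG00000004651, chromosome 7 from 87424771 to 87493512, minus strand), which starts melanin synthesis, had 1.18, 0.737 and 1.87 CPM in WT and 29.1, 25.0 and 18.1 CPM in KO+ZnO NPs. The groups were far apart (log2 fold change 4.26, standard error 0.67, adjusted p = 0.00141). *Dct*, the next enzyme of the same pathway, had 15.8, 6.70 and 15.6 CPM in WT and 144, 209 and 132 CPM in KO+ZnO NPs (3.67, standard error 0.64, adjusted p = 0.00244). *Pmel*, whose protein forms the fibrils of the granule, had 4.78, 1.65 and 5.35 CPM in WT and 85.3, 105 and 50.4 CPM in KO+ZnO NPs (4.36, standard error 0.74, adjusted p = 0.00213). *Mlana* and the channel gene *Oca2* rose by 4.77 and 5.81 (standard errors 0.58 and 1.11, adjusted p = 0.000343 and 0.00396).

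The 16 melanocyte genes had a median log2 fold change of 3.61. The gene that fell was *Mitf*, the master regulator of the lineage, by 0.47 on the log2 scale (standard error 0.14, adjusted p = 0.0320), with 35.5, 41.5 and 39.4 CPM in WT and 30.6, 22.0 and 31.4 CPM in KO+ZnO NPs. *Sox10*, another regulator, had a log2 fold change of 0.55 and *Rab27a* of 0.07, and neither passed the test. Summed over the list, the level was 91.7 to 125 CPM in WT and 438 to 597 CPM in KO+ZnO NPs, between that of KO (195 to 365 CPM) and that of the libraries labelled as WT+ZnO NPs (548 to 1559 CPM), which it overlapped. Between KO and WT 4 of the 16 rose, between the libraries labelled as WT+ZnO NPs and WT 14 rose and 1 fell, and 2 rose and 1 fell between KO+ZnO NPs and KO. Replicate 3 of KO+ZnO NPs, which was low in hair keratins, held 438 CPM of melanocyte transcripts. Leaving out any library kept the 13 within 1.5 times, and a minimum of 10 counts in every library left 8.

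Among keratins of the epidermis between the follicles, the basal pair *Krt5* and *Krt14* rose. *Krt5* had 1838, 1390 and 1910 CPM in WT and 3660, 4514 and 3669 CPM in KO+ZnO NPs (log2 fold change 1.21, standard error 0.28, adjusted p = 0.00999), and its partner *Krt14* had 2728, 2314 and 3257 against 5018, 6100 and 5421 CPM (0.99, standard error 0.31, adjusted p = 0.0383). *Krt17*, a keratin of follicles and of injured epidermis, rose from 517, 325 and 446 to 1634, 2246 and 1034 CPM (1.93, standard error 0.32, adjusted p = 0.00194). *Krt75* of the companion layer of the follicle rose too, and *Krt77*, a keratin of suprabasal and sweat duct cells, fell by 1.82. In total 4 of 14 rose and 1 fell (median 0.95). Between KO and WT 2 rose (median 1.31), and between KO+ZnO NPs and KO 0 rose and 1 fell (median -0.49). The suprabasal keratins *Krt1* and *Krt10* had log2 fold changes of 0.59 and -0.26 and did not pass. Without replicate 2 of WT 1 rise was called. Among single genes, *Lgals7*, a galectin of stratified epithelia, was among the 5 genes with the largest rise in CPM, with 2388, 1911 and 2427 in WT and 4333, 6993 and 3191 in KO+ZnO NPs (1.11, standard error 0.30, adjusted p = 0.0211).

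The cornified envelope is the protein shell of the dead cells at the skin surface. Of its 31 genes, 9 fell, against 13.0% of all genes, 22 were not called and 0 rose, with a median log2 fold change of -0.88. The 9 were all 6 late cornified envelope genes of the *Lce3* cluster together with *Sprr2h*, *Sprr2d* and *Sprr4*. *Lce3d* had 8.85, 15.4 and 11 CPM in WT and 1.05, 0.0504 and 0 CPM in KO+ZnO NPs (log2 fold change -4.96, standard error 1.29, adjusted p = 0.0178). *Lce3b*, with 3 counts in all over KO+ZnO NPs, had a ratio of pooled counts of 0.0144 (95% counting interval 0.00295 to 0.0427). Members of the cluster resemble each other, and 49.3% of the 50-base stretches of *Lce3d* and 48.0% of *Lce3f* occur in other genes. The proteins best known from the envelope did not pass the test. *Lor* (loricrin) had 2085, 972 and 1337 CPM in WT and 1924, 123 and 347 CPM in KO+ZnO NPs, *Ivl* (involucrin) 172, 70.4 and 90.1 against 108, 25.6 and 17.2, and *Flg* (filaggrin) 330, 107 and 300 against 786, 118 and 101. Adjusted p was 0.460, 0.175 and 0.728.

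In the sum over the list, though not in every gene, KO+ZnO NPs was split, with replicate 1 at WT levels and replicates 2 and 3 low. The summed level was 3481 to 7165 CPM in WT and 6990, 837 and 1267 CPM in KO+ZnO NPs. It was 5280 to 10330 CPM in KO and 666 to 1541 CPM in the libraries labelled as WT+ZnO NPs. Replicate 1 is also the library with Y-linked transcripts. Without it the median was -2.67 and 17 of the 31 fell, whereas 2 fell without replicate 2, 4 without replicate 3 of KO+ZnO NPs, and 5, 2 and 4 without WT replicates 1, 2 and 3. Of 22 enzymes of barrier lipids and desquamation, 4 fell, near the 13.0% of all genes, and 0 rose (median -0.80). Among these were *Alox12b*, a lipoxygenase needed for the lipid envelope (-1.83, adjusted p = 0.0484), *Klk10*, a protease of the kallikrein family (-1.77, adjusted p = 0.0392), and *Elovl1*, which lengthens fatty acids (-1.43, adjusted p = 0.00235). Their count was 13 without replicate 1 of KO+ZnO NPs and 2 without any other of the 6 libraries.

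Of 30 junction and polarity genes 15 rose, against 13.1% of all genes, 1 fell and 14 were not called (median log2 fold change 0.63). Between KO and WT 7 rose (median 0.73). Between KO+ZnO NPs and KO 0 rose and 1 fell (median -0.04). *Cdh1*, the E-cadherin that joins keratinocytes, had 151, 118 and 149 CPM in WT and 292, 377 and 235 CPM in KO+ZnO NPs (1.11, standard error 0.22, adjusted p = 0.00535). The desmosome genes *Pkp1* and *Dsc2* rose by 1.19 and 1.54 (adjusted p = 0.0251 and 0.0174), and *Pard6g*, which binds Cdc42 in the polarity complex, by 1.07 (adjusted p = 0.00572). *Prkcz*, a kinase of the same complex, fell by 0.73. The 15 calls were 6 with edgeR on only the 6 libraries and 2 on the 5 libraries without Y-linked transcripts, and 9, 4 and 6 without WT replicates 1, 2 and 3 and 5 and 7 without KO+ZnO NPs replicates 1 and 2. Of 27 effectors and regulators of Cdc42, 4 rose and 5 fell, close to the share over all genes (median -0.04). *Was*, the effector of blood cells, fell most, from 40.7, 40.0 and 31.7 to 5.67, 3.73 and 3.66 CPM (-3.10, standard error 0.37, adjusted p = 0.000320), and *Arhgdib*, an inhibitor of small GTPases found in blood cells, fell by 1.26 (adjusted p = 0.00140). *Rhov* and *Pak6*, a GTPase and a kinase of the same family of pathways, rose by 1.4 and 1.22 (adjusted p = 0.00337 and 0.00876). The effector genes *Wasl*, *Pak1* and *Pak2* had log2 fold changes of 0.37, 0.21 and -0.22 and did not pass. Without replicate 2 of WT 2 rises and 3 falls were called, and without replicate 3 of KO+ZnO NPs 7 rises.

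**Figure D2:**
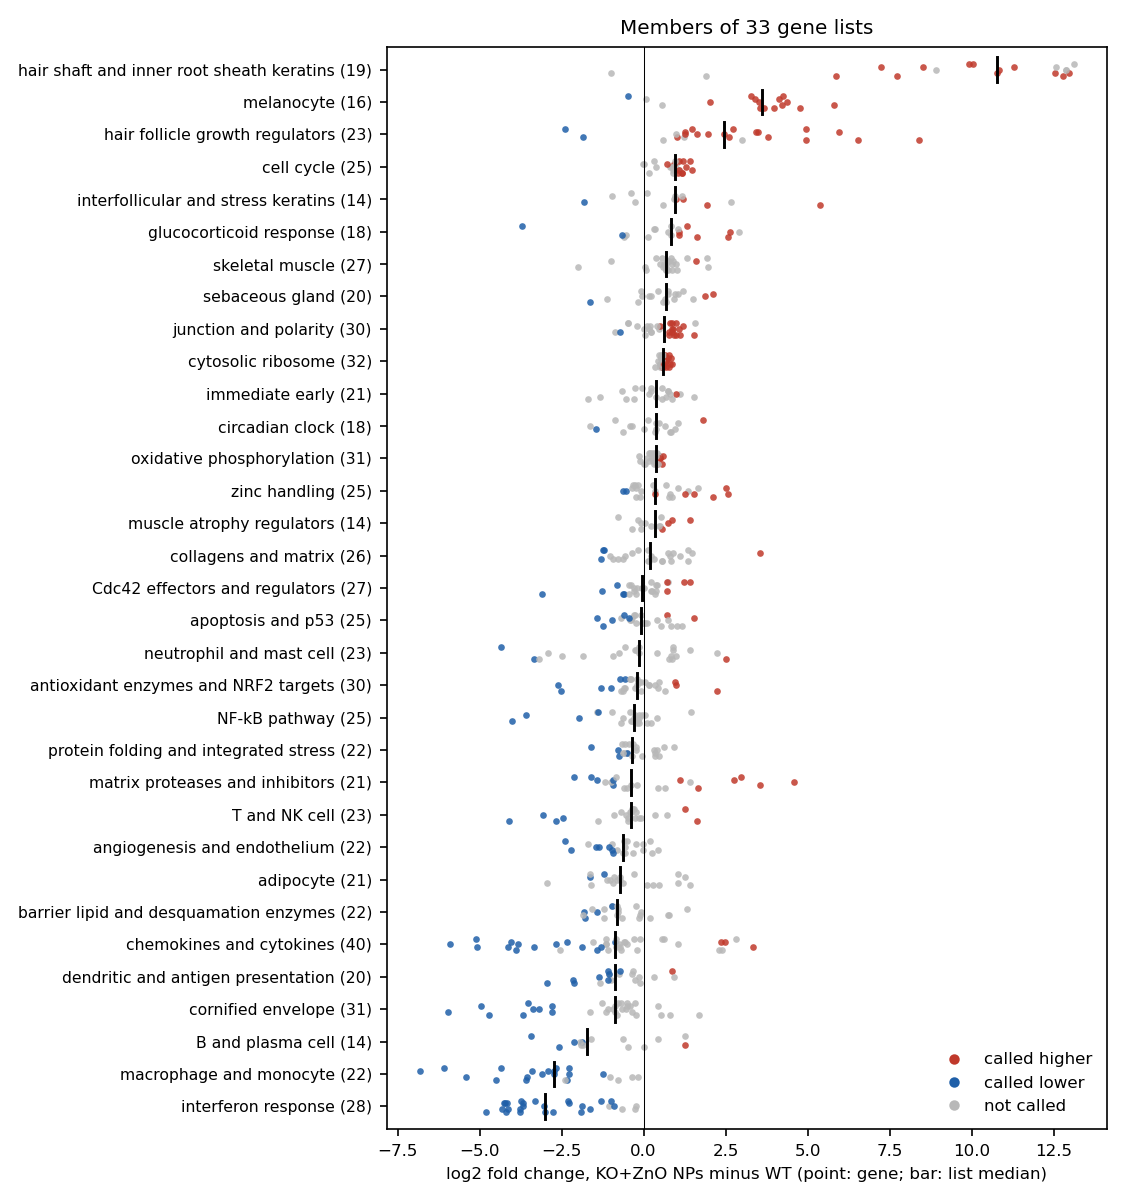
Log2 fold change of KO+ZnO NPs over WT (horizontal axis) for the tested members of 33 gene lists (rows, with the number of members tested), 1 point per gene coloured by the test, with the list median as a bar. Hair keratins have a median of 10.78 and melanocyte genes of 3.61, while interferon response genes have -3.01 and macrophage and monocyte genes -2.73.

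Interferon-stimulated genes were the list with the most called members among those lower in KO+ZnO NPs. Of 28, 24 fell and 0 rose, against 13.0% and 13.1% of all genes, with a median log2 fold change of -3.01, and 25 lay below all WT libraries, against 20.1%. *Ifit1* (ENSMUSG00000034459, chromosome 19 from 34640871 to 34650009, plus strand), which binds foreign RNA, had 124, 68.8 and 88.4 CPM in WT and 5.10, 2.92 and 6.79 CPM in KO+ZnO NPs. The groups were far apart, and the log2 fold change was -4.24 (standard error 0.35, adjusted p = 6.87e-05). *Oasl1*, of the oligoadenylate synthetase family, had 53.9, 39.8 and 37.1 CPM in WT and 1.66, 1.51 and 1.52 CPM in KO+ZnO NPs (-4.80, standard error 0.38, adjusted p = 5.94e-05). *Mx1*, a GTPase that blocks viruses, had 74.7, 31.6 and 33.8 CPM in WT and 2.79, 2.02 and 2.13 CPM in KO+ZnO NPs (-4.33, standard error 0.42, adjusted p = 0.000132). *Oas1a* fell by 4.22 (adjusted p = 5.44e-05), with 57.6% of its 50-base stretches in other genes.

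The regulators of the response were lower as well. *Irf7*, the factor that amplifies interferon production, fell by 4.17, *Stat2* by 1.90 and *Irf9* by 1.29 on the log2 scale. Other interferon-induced genes stood among the 12 largest falls of all, namely *Ifi206* and *Ifi213*, sensors of DNA, and *Slfn1* and *Slfn4* of the schlafen family, by 5.93, 5.20, 5.12 and 5.61. The 4 members that did not pass were *Irf1*, *Cxcl10*, *Tap1* and *Cxcl9*, with log2 fold changes of -1.05, -0.66, -0.26 and -0.23. Summed over the list, the level was 2190 to 3805 CPM in WT, 462 to 691 CPM in KO+ZnO NPs, 541 to 744 CPM in KO and 387 to 513 CPM in the libraries labelled as WT+ZnO NPs. The 3 WT libraries thus held the high values of the series. Against WT, 20 of the 28 fell in KO and 25 in the libraries labelled as WT+ZnO NPs. Between KO+ZnO NPs and KO 2 fell, and 0 were called between KO+ZnO NPs and the libraries labelled as WT+ZnO NPs. The count of 24 stayed within 1.5 times when any library was left out and was 22 on the 5 libraries without Y-linked transcripts.

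Across the lists, *Krt85* was not analysed here, and *Noto*, *Sprr3*, *Slc30a3*, *Slc30a8*, *Slc30a10*, *Myh7*, *Myl2*, *Tnnc2*, *Ucp1*, *Ly6g*, *Ms4a1*, *Ifng*, *Il17a* and *Il22* were below the filter and were not tested.

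The promoters of interferon genes are shown because 24 of the 28 members of this list fell. The letters GAAA, any 2 bases and GAAA again, the core of the interferon-stimulated response element, were searched on both strands of the RefSeq promoters (GRCm38.p6, 300 bases from 250 before a gene's start), a motif chosen after these values were seen. They stood in 13 of 23 promoters of the list (56.5%) and in 504 of 12955 promoters of the genes tested (3.89%). A match is only a description of letters. The stretches below end 30 bases after the start, and capitals mark the matches, which can overlap. *Isg15* and *Rsad2* were called lower and *Cxcl10* was not called. All of these genes were chosen for display after their values were seen.
Ifit1, chr19:34640639-34640918, plus strand: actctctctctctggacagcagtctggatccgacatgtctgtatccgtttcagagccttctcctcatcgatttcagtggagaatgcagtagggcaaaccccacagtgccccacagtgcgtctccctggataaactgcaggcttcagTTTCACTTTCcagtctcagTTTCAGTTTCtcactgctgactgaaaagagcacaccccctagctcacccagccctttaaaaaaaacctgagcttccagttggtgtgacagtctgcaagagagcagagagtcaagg
Isg15, chr4:156200789-156201068, minus strand: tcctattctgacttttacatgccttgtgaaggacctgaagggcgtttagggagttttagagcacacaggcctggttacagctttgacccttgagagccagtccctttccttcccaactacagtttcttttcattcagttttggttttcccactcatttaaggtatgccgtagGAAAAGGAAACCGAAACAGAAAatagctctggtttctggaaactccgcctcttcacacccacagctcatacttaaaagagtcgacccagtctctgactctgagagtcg
Rsad2, chr12:26456423-26456702, minus strand: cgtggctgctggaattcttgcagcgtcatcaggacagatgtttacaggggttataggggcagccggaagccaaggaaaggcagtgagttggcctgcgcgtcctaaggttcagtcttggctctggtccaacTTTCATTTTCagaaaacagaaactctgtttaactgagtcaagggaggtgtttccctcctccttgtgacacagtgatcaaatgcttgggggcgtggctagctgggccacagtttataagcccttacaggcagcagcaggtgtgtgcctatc
Cxcl10, chr5:92348860-92349139, minus strand: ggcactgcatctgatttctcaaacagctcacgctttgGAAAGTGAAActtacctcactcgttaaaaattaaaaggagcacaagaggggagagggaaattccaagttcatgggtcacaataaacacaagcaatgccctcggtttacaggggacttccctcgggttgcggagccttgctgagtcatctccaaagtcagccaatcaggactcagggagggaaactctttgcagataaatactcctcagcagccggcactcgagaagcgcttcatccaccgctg

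These promoters go with the following levels. *Isg15*, a ubiquitin-like protein, had 128, 76.1 and 67.5 CPM in WT and 8.03, 5.85 and 6.23 CPM in KO+ZnO NPs (log2 fold change -3.75, standard error 0.31, adjusted p = 6.96e-05). *Rsad2* (viperin) had 78.8, 46.8 and 51.0 CPM in WT and 4.89, 5.29 and 3.70 CPM in KO+ZnO NPs (-3.67, standard error 0.37, adjusted p = 0.000163). *Cxcl10*, a chemokine induced by interferons and by other signals, had 12.2, 8.28 and 9.48 CPM in WT and 2.62, 4.08 and 12.2 CPM in KO+ZnO NPs, so its groups overlapped, and it did not pass (adjusted p = 0.410).

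Of 22 genes of macrophages and monocytes 17 fell and 0 rose, against 13.0% and 13.1% of all genes, with a median log2 fold change of -2.73, and 19 lay below all WT libraries, against 20.1%. *Fcgr1* (ENSMUSG00000015947, chromosome 3 from 96282909 to 96293969, minus strand), the high-affinity receptor for IgG, had 221, 170 and 95.5 CPM in WT and 4.06, 4.08 and 3.18 CPM in KO+ZnO NPs (log2 fold change -5.42, standard error 0.37, adjusted p = 5.44e-05). *Cd68*, a lysosomal protein of macrophages, had 264, 269 and 264 CPM in WT and 23.5, 35.1 and 16.5 CPM in KO+ZnO NPs (-3.41, standard error 0.43, adjusted p = 0.000410). *Cd163*, the haemoglobin scavenger receptor, had 110, 314 and 317 CPM in WT and 67.9, 27.9 and 14.8 CPM in KO+ZnO NPs (-2.74, standard error 0.56, adjusted p = 0.00570). All 3 KO+ZnO NPs libraries lay below WT for each of these genes.

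Genes of blood monocytes fell too. *Ly6c2*, the surface marker of inflammatory monocytes, had 343, 64.5 and 41.5 CPM in WT and 1.18, 0.857 and 1.87 CPM in KO+ZnO NPs (-6.83, standard error 1.12, adjusted p = 0.00181), and their chemokine receptor *Ccr2* had 426, 295 and 316 CPM in WT and 20, 4.18 and 21.6 CPM in KO+ZnO NPs (-4.50, standard error 0.56, adjusted p = 0.000382). *Chil3*, a chitinase-like protein of macrophages, and *Cd180*, a receptor of B cells and macrophages, also fell, with log2 fold changes of -6.07 and -5.10. *Ms4a4c*, *Gdf3* and *Prg4* (lubricin), among the largest falls and in none of the gene lists, had -6.22, -5.65 and -5.24. The defining markers *Adgre1*, *Csf1r*, *Mrc1* and *C1qa* fell by 3.57, 2.35, 2.91 and 2.26. *Mertk*, *Nos2*, *Cd14* and *Marco* had values of -0.36 to -2.41 and did not pass. The stretches shared with other genes were 14.4% for *Ly6c2*, 26.9% for *Chil3* and 25.6% for *Ifi206*.

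Summed over the macrophage and monocyte list, the level was 6247 to 7480 CPM in WT and 1174, 1320 and 599 CPM in KO+ZnO NPs. It was 2845 to 5204 CPM in KO and 345 to 707 CPM in the libraries labelled as WT+ZnO NPs. Against WT, 2 of the 22 fell in KO and 19 in the libraries labelled as WT+ZnO NPs, and 16 fell between KO+ZnO NPs and KO. The sums of KO lay above those of KO+ZnO NPs here, whereas those of the interferon list overlapped between the same groups. *Fcgr1* was an exception within the list, with 12.8, 22.0 and 16.4 CPM in KO (log2 fold change -3.25 against WT, adjusted p = 0.000642). Most genes of the macrophage and monocyte list and of the interferon list fell in this comparison, and their part in each other's values was not tested. The count of 17 stayed within 1.5 times when any library was left out and was 17 on the 5 libraries without Y-linked transcripts.

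**Figure D3:**
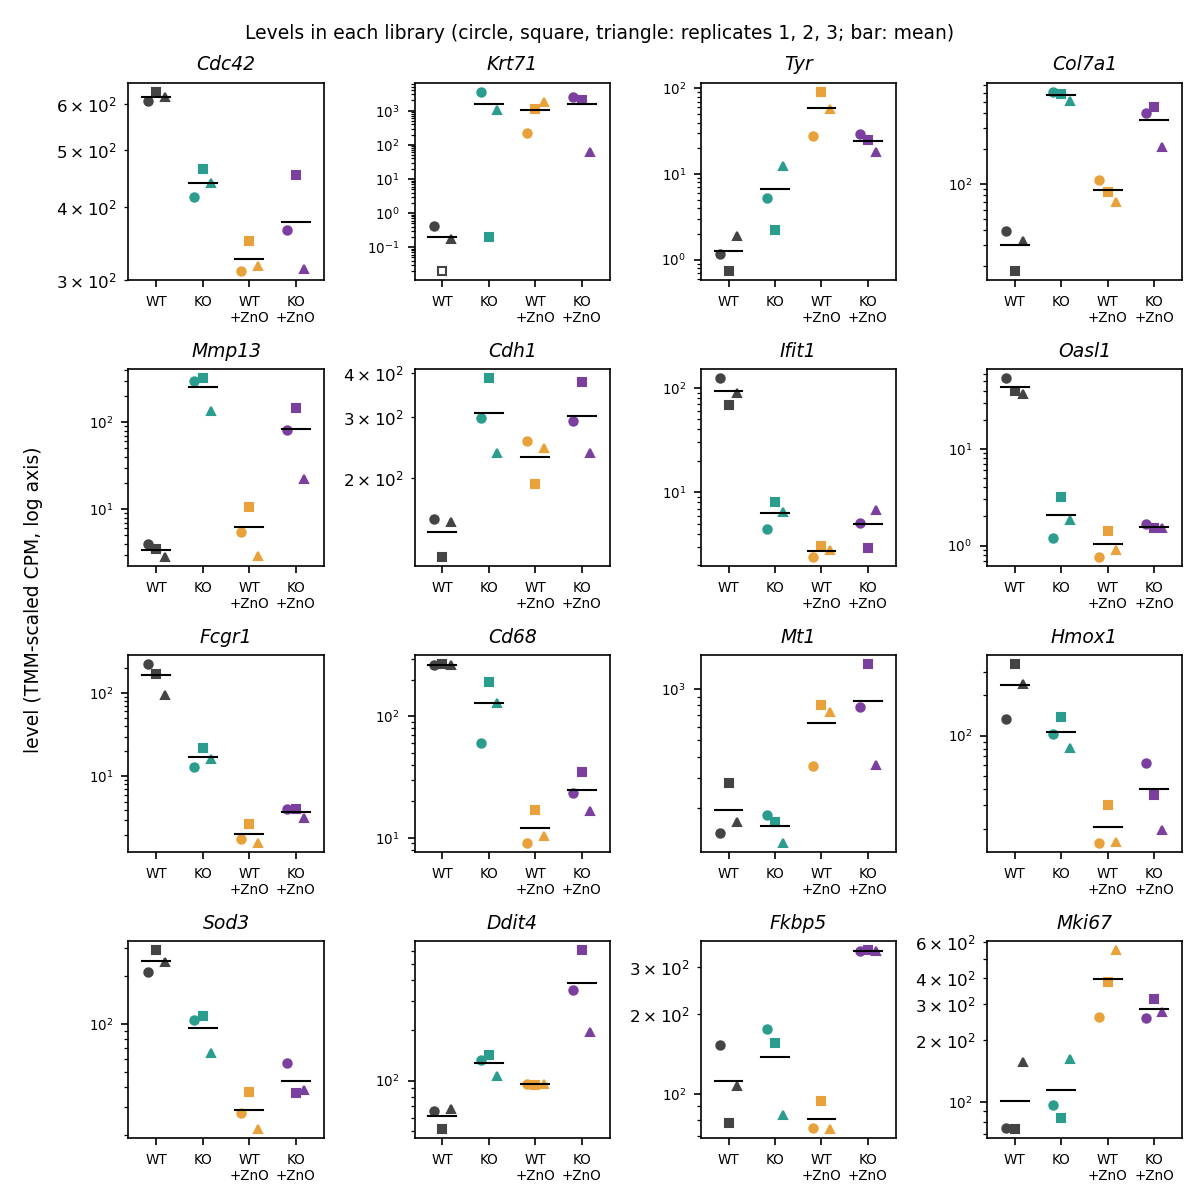
Levels of 16 genes in all 12 libraries (CPM, log axes that differ between panels), with a bar at each group mean, and an open symbol for a library with 0 counts, drawn at the foot of the axis. *Ifit1* and *Oasl1* are high in WT only, *Mt1* is high in KO+ZnO NPs and in the libraries labelled as WT+ZnO NPs, and *Fkbp5* is high in KO+ZnO NPs, at 342 to 345 CPM.

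Of 20 dendritic cell and antigen presentation genes 8 fell and 1 rose (median -0.87). The costimulators *Cd80* and *Cd86*, read by T cells, had 5.79, 6.07 and 5.91 against 1.09, 0.605 and 0.610 CPM and 18, 24.5 and 21.6 against 9.95, 14.1 and 6.05 CPM (-2.93 and -1.09, adjusted p = 0.000676 and 0.0336). The lineage factors *Irf8* and *Batf3* fell by 2.15 and 2.13, and *Ciita*, which switches on MHC class II genes, by 1.37, while the MHC genes *H2-Aa*, *H2-Ab1* and *H2-Eb1* had values of -0.27, -0.13 and -0.11 and the Langerhans cell marker *Cd207* of 0.30, and did not pass. The 8 were 4 without replicate 1 or 3 of WT or on the 5 libraries without Y-linked transcripts, and 5 without replicate 2 of KO+ZnO NPs. In the T and NK cell list the calls were at the 26.1% of all genes, and 4 of 23 fell, *Gzma*, *Gzmb*, *Ncr1* and *Cd28*, and 2 rose, *Trbc2* and *Gata3*, the latter also counted among the hair follicle regulators (median -0.39). *Cd4* had 6.76, 4.28 and 3.99 CPM in WT and 4.10, 5.24 and 2.87 CPM in KO+ZnO NPs, and *Il2ra*, the interleukin-2 receptor, 6.63, 3.69 and 5.74 against 3.32, 1.81 and 4.75, with adjusted p of 0.735 and 0.200. *Trbc2*, a constant segment of the T cell receptor, rose from 17.4, 12.5 and 14.8 to 38.6, 69.5 and 30.2 CPM, but shares 44.0% of its stretches with other genes, and *Trac*, *Cd3e* and *Cd3d* had values of -0.32, -0.90 and -0.48 that did not pass. Without replicate 3 of WT 2 falls were called.

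Of 14 B and plasma cell genes 4 fell and 1 rose (median -1.73, and -0.97 without replicate 2 of WT). *Ighm* of IgM had 130, 346 and 166 CPM in WT and 45.9, 15.2 and 47.2 CPM in KO+ZnO NPs (-2.57, adjusted p = 0.00384), and the rise was that of *Sdc1*, a proteoglycan that keratinocytes also make. The 4 falls were 2 without replicate 2 of WT or replicate 1 or 2 of KO+ZnO NPs. Of 23 neutrophil and mast cell genes 2 fell and 1 rose (median -0.15). The fallen genes were *Csf3r* and *Cxcr2*, receptors of neutrophils, with -4.34 and -3.34 (adjusted p = 0.00285 and 0.0161), and the gene that rose was *Stfa3*, a protease inhibitor, with 186, 54.3 and 128 CPM in WT and 511, 1313 and 254 CPM in KO+ZnO NPs (2.5, adjusted p = 0.0321). The neutrophil genes *S100a8* and *S100a9* had values of -1.85 and -2.91 that did not pass. Without replicate 2 of WT 1 fell, and 5 fell without replicate 3 of KO+ZnO NPs or replicate 2 of the libraries labelled as WT+ZnO NPs.

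Of 40 chemokine and cytokine genes 14 fell, against 13.0% of all genes, 3 rose and 23 were not called (median -0.86). *Ccl7*, which draws monocytes, had 77.3, 186 and 55.0 CPM in WT and 1.13, 1.97 and 6.27 CPM in KO+ZnO NPs (-5.08, standard error 1.04, adjusted p = 0.00559). *Cxcl5* and *Cxcl3*, which draw neutrophils, and *Ccl4* fell by 5.89, 4.12 and 5.10. *Ccl17*, *Cxcl14* and *Ccl1* rose, *Cxcl14* of the follicle from 43.6, 37.9 and 35.9 to 270, 329 and 50.8 CPM. *Il1f6* (IL-36 alpha), with 52.5, 20 and 34.3 against 16.5, 1.01 and 0.653 CPM, did not pass (adjusted p = 0.114). Without replicate 2 of WT the 14 falls were 7 and the 3 rises were 1, and 6 rose without replicate 3 of KO+ZnO NPs. In the NF-kB pathway 4 of 25 fell, near the 13.0% of all genes, and 0 rose (median -0.30). They were the target genes *Ccl2* (80.5, 175 and 52.2 against 3.58, 5.39 and 10.1 CPM), *Il1b* (17.9, 30.3 and 20.8 against 1.4, 2.27 and 2.13 CPM) and *Cd40*, and the inhibitor *Nfkbie*. The subunits *Rela* and *Nfkb1* had 73.3, 73.4 and 68.2 against 59.3, 73.4 and 62.2 CPM and 119, 106 and 106 against 109, 141 and 105 CPM, with adjusted p of 0.518 and 0.673.

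**Figure D4:**
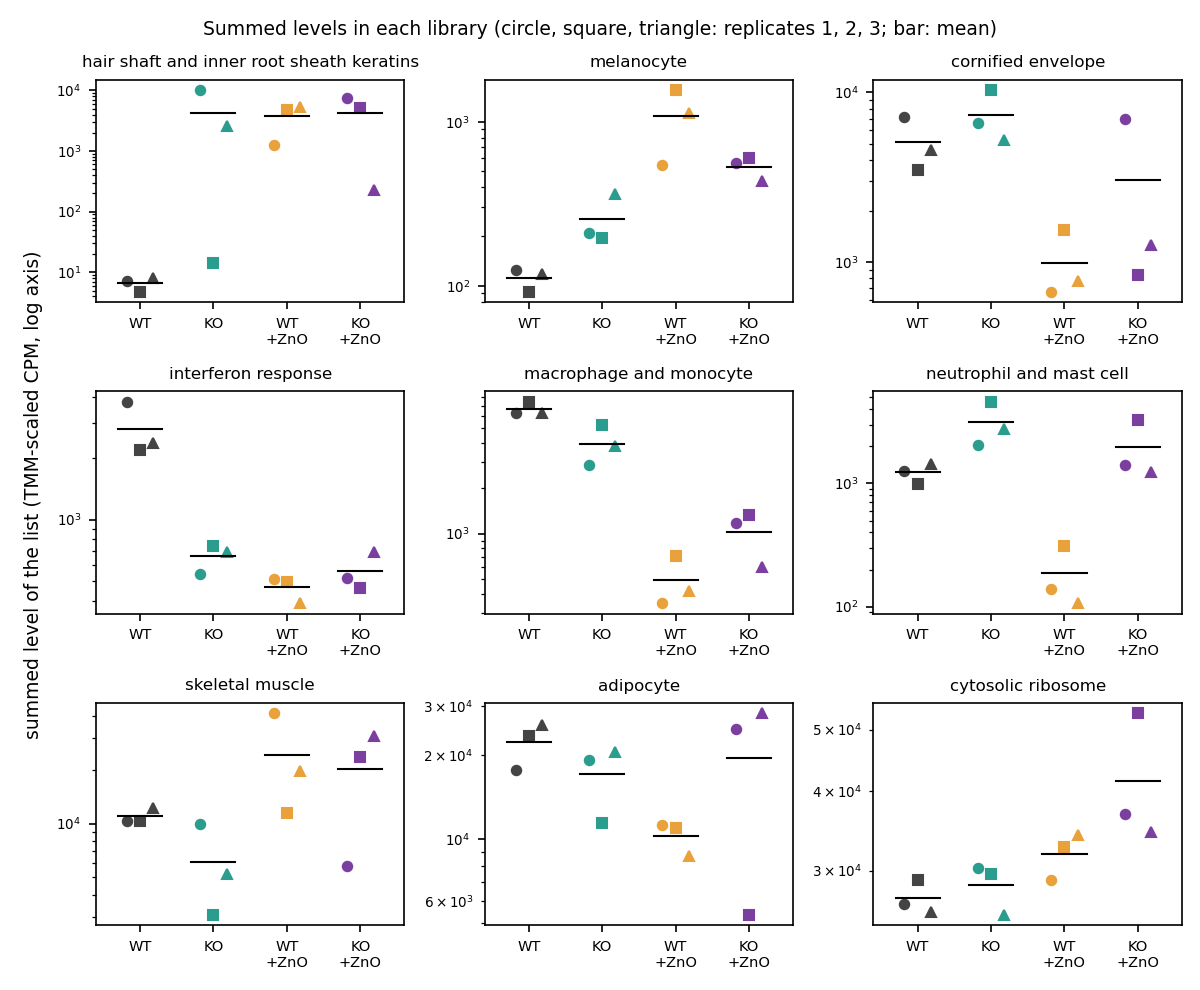
Summed level of 9 gene lists in each of the 12 libraries (CPM, log axes that differ between panels), with a bar at each group mean. Hair keratins are near 0 in WT and in replicate 2 of KO, cornified envelope transcripts split KO+ZnO NPs into replicate 1 and the rest, and interferon transcripts are high in WT only.

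Extracellular proteases and their inhibitors moved both ways, with 6 of 21 higher and 5 lower (median -0.38). *Mmp13*, a collagenase, had 3.99, 3.47 and 2.80 CPM in WT and 80.1, 147 and 22.1 CPM in KO+ZnO NPs (log2 fold change 4.6, standard error 0.71, adjusted p = 0.00130). *Mmp12*, the macrophage elastase, had 14.9, 13.4 and 10.9 against 67.6, 312 and 81.3 CPM (3.55, adjusted p = 0.00432), and *Mmp9*, a gelatinase, 36.5, 59.9 and 29.9 against 353, 372 and 120 CPM (2.74, adjusted p = 0.0132). *Mmp10*, *Mmp11* and *Mmp14* rose too, while *Mmp19*, *Plau*, *Adamts5*, *Timp2* and *Mmp27* fell. In KO with vehicle *Mmp12* had 297, 1388 and 1126 CPM, and *Mmp12* and *Mmp10* were lower in KO+ZnO NPs than in KO (log2 fold changes -2.61 and -2.70, adjusted p = 0.0278 and 0.0425). In the libraries labelled as WT+ZnO NPs *Mmp13* had 5.40, 10.5 and 2.93 CPM. The 6 rises were 3 without replicate 1 of WT, and the 5 falls were 2 without replicate 2 of WT and 3 without replicate 3 of WT or replicate 1 or 3 of KO+ZnO NPs.

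*Col7a1* (ENSMUSG00000025650, chromosome 9 from 108953586 to 108984875, plus strand), the anchoring fibril collagen that keratinocytes and fibroblasts make at their border, had 39.7, 18 and 32.4 CPM in WT and 405, 452 and 205 CPM in KO+ZnO NPs (3.56, standard error 0.36, adjusted p = 0.000160). It was the only rise among 26 collagen and matrix genes (median 0.20). *Dcn* (decorin), *Pdgfra*, a fibroblast receptor, and *Loxl1*, which crosslinks elastin, fell by 1.21, 1.31 and 1.24 (adjusted p = 0.0453, 0.0267 and 0.0106), and 1 fall was called without replicate 2 or 3 of WT or replicate 1 or 3 of KO+ZnO NPs. *Col1a1* had 2221, 996 and 2876 against 6748, 5036 and 5188 CPM and did not pass (adjusted p = 0.0852). Of 22 genes of vessels and angiogenesis, 7 fell and 0 rose (median -0.62). The lymphatic genes *Lyve1*, *Prox1* and *Flt4* and the progenitor marker *Cd34* fell, with log2 fold changes of -2.39, -2.22, -1.44 and -1.35, as did *Tek*, a receptor of all endothelium, with -1.05 (adjusted p = 0.0467). The other endothelial genes *Kdr*, *Pecam1* and *Cdh5* had values of -0.95, -0.33 and -0.22 that did not pass. *Thbs1*, the angiogenesis inhibitor thrombospondin-1, had 240, 364 and 267 CPM in WT and 104, 130 and 35.2 CPM in KO+ZnO NPs, without overlap, and did not pass (-1.69, standard error 0.58, adjusted p = 0.0532). The 7 falls were 4, 3 and 2 without WT replicates 1, 2 and 3, 3 without replicate 1 or 3 of KO+ZnO NPs and 2 on the 5 libraries without Y-linked transcripts.

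Zinc handling genes came next. Of 25, 6 rose and 2 fell, near the 26.1% of all genes (median log2 fold change 0.36), and 2 of 4 metallothioneins rose. *Mt1* (ENSMUSG00000031765, chromosome 8 from 94179082 to 94180327, plus strand) had 144, 280 and 165 CPM in WT and 779, 1394 and 361 CPM in KO+ZnO NPs, all above WT (log2 fold change 2.10, standard error 0.48, adjusted p = 0.00966). It had 183, 167 and 125 CPM in KO and 354, 808 and 728 CPM in the libraries labelled as WT+ZnO NPs. It rose against WT in the latter (1.68, adjusted p = 0.0155) and in KO+ZnO NPs against KO (2.42, adjusted p = 0.0134), and did not pass between KO and WT (-0.31, adjusted p = 0.721). *Mt2* rose by 2.58 (adjusted p = 0.0116), with levels of only 0.723 to 13.1 CPM in the 6 libraries, and 73.5% of its exon bases overlap another annotated gene, which bears on how many of its reads were counted. *Mt3* and *Mt4* had log2 fold changes of 1.36 and 1.67 and did not pass (adjusted p = 0.0711 and 0.0690). On the 5 libraries without Y-linked transcripts *Mt1* and *Mt2* did not pass the edgeR test either (adjusted p = 0.0631 and 0.0654).

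Among the importers, *Slc39a8*, which carries zinc and other metals into cells, had 27.8, 17.8 and 17.0 CPM in WT and 148, 173 and 36.1 CPM in KO+ZnO NPs (2.51, standard error 0.60, adjusted p = 0.0118), and *Slc39a6* rose by 1.55 (adjusted p = 0.0313). *Slc39a8* had 78.5 to 91.6 CPM in KO and 23.4 to 91.4 CPM in the libraries labelled as WT+ZnO NPs. The exporter *Slc30a1*, another target of MTF1, had 69.0, 69.5 and 67.3 against 169, 146 and 59.2 CPM and did not pass (0.86, adjusted p = 0.114). *Slc30a2* and *Slc30a9* rose, *Slc39a7* and *Slc39a1* fell, and *Mtf1* itself had a value of -0.26 that did not pass. The 6 rises were 3, 2 and 3 without WT replicates 1, 2 and 3 and 2 on the 5 libraries without Y-linked transcripts.

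The promoters of *Mt1* and *Slc30a1* are shown because MTF1 binds the metal response element. Its core letters TGCACNC and TGCGCNC were searched on both strands, as above, and stood in 13 of 22 promoters of the zinc handling list (59.1%) and in 38.1% of the 12955 promoters of tested genes. Such short letters are common, and no site is inferred from them. Capitals mark the matches.
Mt1, chr8:94178839-94179118, plus strand: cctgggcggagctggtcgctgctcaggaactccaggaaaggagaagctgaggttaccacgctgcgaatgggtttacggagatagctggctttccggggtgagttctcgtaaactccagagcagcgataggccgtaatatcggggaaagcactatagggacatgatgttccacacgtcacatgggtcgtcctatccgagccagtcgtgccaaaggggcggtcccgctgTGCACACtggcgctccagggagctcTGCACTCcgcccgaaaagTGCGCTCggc
Slc30a1, chr1:191906531-191906810, plus strand: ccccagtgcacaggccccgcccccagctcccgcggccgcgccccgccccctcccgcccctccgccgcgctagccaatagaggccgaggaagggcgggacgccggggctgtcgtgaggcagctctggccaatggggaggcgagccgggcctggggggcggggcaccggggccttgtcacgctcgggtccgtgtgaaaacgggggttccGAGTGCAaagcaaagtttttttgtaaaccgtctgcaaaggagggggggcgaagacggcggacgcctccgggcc

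Antioxidant genes changed in both directions, with 20 of 30 log2 fold changes negative. Their summed level was 4717 to 6037 CPM in WT, 3951 to 4469 CPM in KO+ZnO NPs and 3909 to 4400 CPM in KO. Of 30 antioxidant enzymes and NRF2 targets, 3 rose and 6 fell (median -0.20). *Sod3*, the extracellular superoxide dismutase, had 212, 291 and 246 CPM in WT and 56.8, 36.5 and 38.3 CPM in KO+ZnO NPs (log2 fold change -2.51, standard error 0.27, adjusted p = 0.000221). *Hmox1*, a haem oxygenase that is high in macrophages, had 132, 342 and 242 against 62.8, 36.0 and 19.7 CPM (-2.59, standard error 0.47, adjusted p = 0.00316), and *Gpx3* fell by 1.28. *Gpx2*, a glutathione peroxidase of epithelia, rose by 2.25, and *Gclc* and *Gclm*, which make glutathione, by 1.00 and 0.95. *Sod1*, *Sod2* and *Cat*, the main enzymes against superoxide and peroxide inside cells, had 162, 181 and 174 against 136, 135 and 223 CPM, 105, 150 and 114 against 99.7, 99.2 and 123 CPM, and 293, 347 and 544 against 302, 98.2 and 362 CPM. Their adjusted p was 0.819, 0.391 and 0.257. The 3 rises were 1 without replicate 2 or 3 of WT or replicate 2 of KO+ZnO NPs, and the 6 falls were 3 without replicate 2 of WT, without replicate 1 of KO+ZnO NPs or on the 5 libraries without Y-linked transcripts.

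Of 22 protein folding and stress genes 18 were not called. Against 13.0% of all genes, 4 fell, *Sdf2l1*, *Hspa5* (BiP), *Pdia4* and *Pdia6*, which all act in the endoplasmic reticulum, by 1.59, 0.78, 0.74 and 0.51, and 0 rose (median -0.34). The count of falls in the list was 2 on the 5 libraries without Y-linked transcripts, where *Hspa5*, *Pdia4* and *Pdia6* did not pass. It was 7 with library size alone as the scaling and 8 with DESeq2 on all libraries. Among 25 apoptosis and p53 genes, 5 fell and 2 rose, near the 26.1% of all genes (median -0.09). *Casp8*, *Bid* and *Apaf1*, which carry the death signal, fell by 0.96, 1.43 and 1.25 (adjusted p = 0.000245, 0.000347 and 0.00113), as did *Casp9* and *Mdm2*, by 0.46 and 0.60, with *Bid* going from 19.8, 22.0 and 19.5 to 7.42, 7 and 8.36 CPM. *Trp53inp1* and *Bbc3* rose, *Trp53inp1* by 1.53 (adjusted p = 0.00437). The regulators *Bcl2* and *Bax* had 15.4, 17.1 and 15.8 against 18.2, 23.3 and 29 CPM and 84.0, 73.6 and 62.3 against 47.1, 74.4 and 51.9 CPM, with adjusted p of 0.0606 and 0.213. The 5 falls were 3 without replicate 1 or 2 of WT, and the 2 rises were 4 without replicate 3 of KO+ZnO NPs or replicate 1 of the libraries labelled as WT+ZnO NPs and 1 without replicate 2 of WT or of KO+ZnO NPs.

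Glucocorticoid response genes were changed in both directions. Of 18, 6 rose and 2 fell (median log2 fold change 0.84). *Ddit4*, an inhibitor of mTORC1, had 65.9, 50.9 and 67.6 CPM in WT and 350, 606 and 196 CPM in KO+ZnO NPs (2.64, standard error 0.33, adjusted p = 0.000420), with 132, 142 and 106 CPM in KO and 95.9, 94.4 and 95.3 CPM in the libraries labelled as WT+ZnO NPs. *Fkbp5*, which tunes the glucocorticoid receptor, had 152, 77.8 and 107 CPM in WT and 342, 345 and 343 CPM in KO+ZnO NPs (1.61, standard error 0.29, adjusted p = 0.00270). *Sgk1*, *Tsc22d3* and *Pdk4* rose by 1.34, 1.06 and 1.06. *Lcn2*, an iron-binding protein of neutrophils and epithelia, fell from 111, 284 and 132 to 12.3, 18.4 and 9.93 CPM (-3.70, adjusted p = 0.00408), and the receptor gene *Nr3c1* by 0.67. Of these 18 genes, 4 also rose between KO+ZnO NPs and KO and 4 between KO+ZnO NPs and the libraries labelled as WT+ZnO NPs. The 6 rises were 3 without replicate 2 or 3 of WT or replicate 2 of KO+ZnO NPs. The glucocorticoid response element, searched as GNACA, any 3 bases and TGTNC, stood in 1 of 13 promoters of the list, that of *Sgk1* (7.69%, against 0.494% of all).

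Of 18 clock genes, *Nfil3* rose by 1.81 and *Nr1d1* fell by 1.45 (adjusted p = 0.0387 and 0.0481, median of the list 0.37), and of 21 immediate early genes only *Fosl2* rose, by 0.99 (adjusted p = 0.0497, median of the list 0.38). *Fosl2* was called in 9 of 22 alternative settings and *Nr1d1* in 11. The E-box CACGTG stood in 5 of 15 clock promoters (33.3%, against 10.7% of all) and the D-box TTATGTAA in 1 (6.67%, against 0.726%). Regulators of muscle atrophy gave 4 rises of 14 and 0 falls (median 0.34). *Trim63*, a ubiquitin ligase of muscle, had 41.0, 37.8 and 23.1 CPM in WT and 49.6, 159 and 62.4 CPM in KO+ZnO NPs (1.41, standard error 0.47, adjusted p = 0.0472), and *Fbxo32*, *Klf15* and *Foxo1* rose by 0.87, 0.75 and 0.57. *Trim63* was called in 10 of 22 alternative settings, and its log2 fold change was 0.75 without replicate 2 of KO+ZnO NPs (adjusted p = 0.194). The 4 rises were 1 without replicate 1 or 2 of WT and 2 without replicate 1 of KO+ZnO NPs. Muscle genes themselves varied between samples, with a summed level of 5794, 23481 and 31034 CPM in KO+ZnO NPs and 10347 to 12142 CPM in WT, and 1 of 27, *Mb* (myoglobin), rose (median 0.70), though 31.9% of its exon bases overlap another gene. The part of muscle content in the values of *Trim63* was not tested.

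Fat genes spread in a like way. *Fabp4*, the fatty acid binding protein of adipocytes and vessels, and *Cd36*, a fatty acid receptor, fell by 1.21 and 1.64 (adjusted p = 0.0485 and 0.00111), the only falls among 21 adipocyte genes (median -0.73), of which 0 rose, while the summed level was 24848, 5357 and 28297 CPM in KO+ZnO NPs and 17647 to 25719 CPM in WT. *Adipoq* and *Plin1*, the defining markers, had values of -0.95 and -1.64 that did not pass. Of 20 sebaceous gland genes 2 rose, *Fa2h* and *Elovl3*, by 2.12 and 1.88, and *Plin2* fell by 1.64, from 707, 841 and 545 to 172, 143 and 354 CPM (median 0.68). Neither rise was called without any 1 of the WT libraries or without replicate 3 of KO+ZnO NPs, and 1 adipocyte gene fell without any 1 WT library or replicate 2 of KO+ZnO NPs.

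Some genes of cell division and of protein and energy production rose, with calls that rested on single libraries or on the fit. Of 25 cell cycle genes 11 rose and 0 fell (median log2 fold change 0.96), and 20 lay above all WT libraries, against 22.5% of genes. *Mki67*, the marker of dividing cells, had 74.7, 73.4 and 156 CPM in WT and 257, 317 and 273 CPM in KO+ZnO NPs (1.48, standard error 0.37, adjusted p = 0.0146), and *Cdc20*, *Cenpf* and *Ube2c* rose by 1.29, 1.41 and 1.21, though 22.8% of the exon bases of *Ube2c* overlap the muscle gene *Tnnc2*, itself below the filter. *Mki67* had 83.3 to 162 CPM in KO and 259 to 548 CPM in the libraries labelled as WT+ZnO NPs, and 13 of the 25 rose between KO+ZnO NPs and KO, while 0 were called between KO and WT. The 11 calls were 1, 0 and 19 without WT replicates 1, 2 and 3, 5, 2 and 5 without KO+ZnO NPs replicates 1, 2 and 3, and 7 without replicate 2 of the libraries labelled as WT+ZnO NPs. The summed level of the list was 805 to 1229 CPM in WT, 1474 to 1787 CPM in KO+ZnO NPs and 640 to 1063 CPM in KO.

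Of 32 genes of the cytosolic ribosome, 19 rose and 0 fell, and all 32 log2 fold changes lay between 0.36 and 0.87 with a median of 0.59. *Rps20* had 607, 676 and 573 CPM in WT and 925, 1451 and 908 CPM in KO+ZnO NPs (0.82, standard error 0.20, adjusted p = 0.0129). The summed level was 25785 to 28980 CPM in WT and 36766, 53090 and 34532 CPM in KO+ZnO NPs. The 19 calls were 0 with edgeR on only the 6 libraries or on the 5 without Y-linked transcripts, and 4, 7 and 1 without WT replicates 1, 2 and 3, and 29 without replicate 3 of KO+ZnO NPs. Of 31 nuclear genes of oxidative phosphorylation 8 rose, against 13.1% of all genes, and 0 fell (median 0.36), among them *Ndufa1*, *Cox7b*, *Cyc1* and *Ndufv1*, by 0.51 to 0.58. The summed level of the 31 was 7426, 9137 and 9395 CPM in KO+ZnO NPs, where that of the muscle genes was 5794, 23481 and 31034 CPM, and the part of muscle content in it was not tested. The 8 rises were 1, 0 and 3 without WT replicates 1, 2 and 3, 4 and 3 without KO+ZnO NPs replicates 2 and 3, 5 without replicate 3 of the libraries labelled as WT+ZnO NPs, and 5 and 4 without KO replicates 1 and 3. Of 13 protein genes of the mitochondrial genome 3 rose, with *mt-Cytb* at 4531, 3982 and 5668 against 7823, 9967 and 9012 CPM (0.92, standard error 0.25, adjusted p = 0.0231), and with *mt-Nd4*, of which 62.2% of the stretches occur in other genes.

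The genes with the largest falls in CPM included *Ctsb*, *Psap*, *Vim* and *Gsn*. *Ctsb*, the protease cathepsin B, had 2763, 3231 and 3096 CPM in WT and 967, 942 and 623 CPM in KO+ZnO NPs (-1.84, standard error 0.24, adjusted p = 0.000497), and *Psap*, which activates lysosomal lipid enzymes, fell by 1.42 (adjusted p = 0.00172). In the same libraries the summed level of the macrophage and monocyte list was 6247 to 7480 CPM in WT and 599 to 1320 CPM in KO+ZnO NPs, and its part in these falls was not tested. *Vim* (vimentin), the filament protein of mesenchymal cells, had 2637, 3281 and 2765 against 1009, 1274 and 930 CPM (-1.43, standard error 0.27, adjusted p = 0.00377), and *Gsn* (gelsolin), which severs actin, 3016, 3711 and 3891 against 1331, 859 and 1330 CPM (-1.59, standard error 0.24, adjusted p = 0.00124). *Vim* had 1219 to 1582 CPM in KO and 475 to 911 CPM in the libraries labelled as WT+ZnO NPs.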

How the data were processed

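The authors deposited 1 table of raw counts per gene for the 12 libraries of poly-A RNA from skin. The submitters' processing notes name HISAT2 2.0.5 and mm10, while the methods name STAR and HTSeq. The annotation release and the strand setting are not given in the sources used here. Gene positions came from GENCODE M21 (GRCm38; 52489 of 52636 IDs matched), and promoters from RefSeq GRCm38.p6.

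Counts were filtered with filterByExpr, scaled by TMM and fitted in edgeR 4.0.16 (R 4.3.3) with 1 coefficient per group over all 12 libraries. The quasi-likelihood test was adjusted by Benjamini-Hochberg over 18822 genes. A standard error is the log2 fold change over the square root of its F, an approximation. Genes with 0 WT counts were bounded at a floor of 3 counts per library, and ratios of pooled counts have exact 95% intervals. The script was tested on simulated data. Members and gene lists were chosen with earlier results of these data known, and some hold the same genes. *Il1f6* stands for IL-36 alpha. Named genes were *Cdc42*, genes the study names, the 12 largest rises and falls among called protein-coding genes that averaged 10 CPM or more and did not overlap, the 5 largest changes in CPM each way, and up to 4 called members per list. All other genes named, including *Isg15*, *Rsad2*, *Cxcl10* and *Slc30a1*, were chosen after their values were seen. Alternatives were RLE or library-size scaling, DESeq2 1.42.0, other filters, fits on the 6 libraries, a replicate block, a Y-linked covariate and each library left out. A few results are not reported here.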

Additional observations from a re-analysis of the deposited data

Results flagged for a closer look

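For 43 of the 163 named genes the log2 change with ZnO NPs in the knockout minus that in the libraries labelled WT+ZnO NPs, a test of the difference itself, passed the quasi-likelihood test of edgeR, with adjusted p from 0.00124 to 0.0496, against 8.68% of all genes. A negative value means that the change from KO to KO+ZnO NPs lay below that from WT to the libraries labelled WT+ZnO NPs. It was positive for 28 and negative for 15. The named genes were in part chosen for their size of change against WT, which enters this difference, and *Cdc42* in the libraries labelled as WT+ZnO NPs goes against that label. The 3 libraries labelled WT+ZnO NPs held Y-linked transcripts at 192 to 236 CPM, and the 3 WT libraries held 0 CPM. In the change between these groups, sex and ZnO NPs cannot be told apart. From KO to KO+ZnO NPs the median log2 fold change was -0.38 for the interferon list and -0.48 for the hair keratins. It was 1.76 for the melanocyte list and -1.99 for the macrophage and monocyte list. From WT to the libraries labelled WT+ZnO NPs these medians were -3.14, 11.29, 4.997 and -3.96. In each of these lists the latter median was the larger in size. A difference below is therefore not a change with ZnO NPs in the knockout alone.

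Among hair follicle and epidermal genes the differences were *Krt71* (-12.39), *Krt25* (-11.73), *Krt35* (-10.93), *Krt73* (-10.75), *Krt27* (-10.15), *Hoxc13* (-6.43), *Shh* (-6.20) and *Krt17* (-1.94). Among pigment genes the differences were *Oca2* (-6.38), *Mlana* (-5.12), *Pmel* (-3.96) and *Tyr* (-3.71). Among interferon-induced genes the differences were *Oasl1* (5), *Ifit1* (4.74), *Slfn4* (4.65), *Mx1* (4.32), *Ifi206* (4.22), *Slfn1* (4.07), *Oas1a* (3.85) and *Ifi213* (3.74). Among macrophage and antigen-presenting cell genes the differences were *Fcgr1* (4.15), *Cd68* (2.11), *Was* (1.79) and *Cd40* (1.76). For genes with large falls that are in none of the gene lists they were *Gdf3* (5.73), *Ms4a4c* (4.74) and *Prg4* (3.80). Among matrix, vessel and fat genes the differences were *Lyve1* (3.98), *Fabp4* (2.64), *Cd36* (2.15), *Vim* (1.79), *Cd34* (1.76), *Gsn* (1.46), *Col7a1* (-2.24) and *Mmp12* (-3.28). The remaining genes, of several lists, were *Casp8* (1.12), *Cox7b* (1.18), *Fkbp5* (1.79), *Pdia6* (0.86), *Rhov* (-2.16), *Sdf2l1* (1.25), *Sod1* (0.94) and *Sod3* (2.01).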

How the results depend on the processing

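The 4908 genes called were 4790 with RLE factors, 4651 with library size alone, 5966 and 4614 with DESeq2 on 12 and 6 libraries, 3452 with edgeR on the 6 libraries, 3965 without a filter, 4356 with at least 10 counts in every library and 4125 with Y-linked transcripts as a covariate. On the 5 libraries without Y-linked transcripts, a setting added after seeing the data, 2730 were called. Leaving out 1 library gave 2709 (without replicate 2 of WT) to 5180 genes, of which 1078 to 2857 were higher and 1631 to 2449 lower. The genes higher, 2464, were 1448 with edgeR on the 6 libraries, 1037 on the 5 without Y-linked transcripts, and 1443, 1078 and 1514 without WT replicates 1, 2 and 3. Deviations from the group means of WT and KO+ZnO NPs libraries of the same number correlated by 0.042, 0.093 and 0.118, so numbers were taken as names, though each library correlated best with its own number. With the replicate block 4750 genes were called, and 19 in place of 11 cell cycle genes rose. With at least 10 counts in every library, which removes genes near 0 in WT, 0 hair keratins were called.

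No named gene that was called changed direction in any of the 22 settings, while *Flg*, *Sod1*, *Gapdh*, *Cd4* and *Nfkb1*, which were not called, changed sign in some. Of the genes the study names, *Trim63* was called in 10 of the 22, *Cd86* in 15, *Mki67* in 20 and *Cdc42* in 21. Among those not called, *Thbs1* passed in 9, *Bcl2* in 4 and *Lor* and *Ivl* in 2 each. Of 149 named calls, 59 were lost without replicate 2 of WT, 30 with edgeR on the 6 libraries and 49 on the 5 without Y-linked transcripts. Of 725 list medians, 695 moved by less than the spread between libraries, and 21 moved by more. In 9 cases the sign changed. Leaving out 1 library gave medians of -0.0809 to 0.0676 for the Cdc42 effectors (0.00687 without replicate 2 of WT), -0.148 to 0.656 for immediate early genes, -0.594 to 0.0208 for matrix proteases, -0.0806 to 0.512 for muscle atrophy regulators and -0.875 to 0.153 for neutrophil and mast cell genes. The last was 0.0789 with the Y-linked covariate and 0.0723 on the 5 libraries without Y-linked transcripts. The causes were not tested. Genes with few counts in WT, hair keratins above all, have fold changes that depth limits to bounds.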
